A study of Mus musculus with 14 samples.

Results

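Fibronectin, the fibulins, elastin and the matricellular proteins were described here in the dissected epicardium and subepicardium of fetal mouse hearts, as 10 genes of the 15894 listed by the authors, namely Fn1, Fbln1, Fbln2, Fbln5, Eln, Sparc, Thbs1, Tnc, Postn and Vcan. They were chosen by gene name for their place in the extracellular matrix and not by a measured value, although earlier results of these data were known. Each name was found on 1 row. The libraries came from hearts at E16.5, the stage given by the study, and each held RNA purified from a pool of 2 hearts; the hearts of the study were of mixed background and came from at least 3 litters. The ventral side gave 3 female and 4 male libraries and the dorsal side 3 of each sex, and the ventral and dorsal libraries of a sex share pool numbers (1 to 3 for females, 4 to 7 for males). A further male library, numbered 7, was called dorsal in its title and ventral in its tissue field, so it has no settled region and entered no main comparison. All libraries carry the genotype label Tbx18Cre, an allele in which the Cre recombinase is driven by the locus of an epicardial transcription factor, whereas the study calls the hearts wild type; no treatment was given. Since female pools are numbered 1 to 3 and male pools 4 to 7, sex and the series of pools cannot be told apart.

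The extracellular matrix under the epicardium is laid down by the mesothelial layer itself and by the fibroblasts derived from it. Fibronectin is assembled by integrins into fibrils along which cells migrate and on which collagen and microfibrils are deposited, fibulins tie microfibrils and elastin together, and elastin gives the mature elastic fibre its recoil. Matricellular proteins are secreted into the same matrix but change how cells adhere and signal more than they bear load, and versican with its hyaluronan partners makes the loose, hydrated matrix typical of the embryonic heart.

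A library held between 13918995 and 25221314 reads over the 15894 listed genes. Values are given as normalized CPM, the reads of a gene scaled by the authors to the effective size of its library. All 10 genes were well above the floor of 3 reads in every library, the lowest being Tnc with 84 reads in a female dorsal library. As a check of the dissection, all 10 epicardial markers (Wt1, Tbx18, Upk3b and others) were above the floor in every library, and their summed level was 1724 to 2816 normalized CPM ventrally and 281 to 630 dorsally in females, and 1997 to 6081 ventrally and 1603 to 4311 dorsally in males. Ventricular cardiomyocyte markers summed to between 17843 and 48530, so each library also held muscle RNA. The library labelled female dorsal 1 stood apart from all others. Its 5 listed atrial cardiomyocyte markers summed to 12463, against 475 to 1993 in the other 13 libraries, its valve and outflow markers summed to 411, against 216 to 305, and its epicardial sum of 281 was the lowest. Male ventral 7 had the lowest sum of blood endothelial markers, 95 against 323 to 679 elsewhere. In such pooled tissue, fewer cells of a type and less RNA per cell cannot be told apart.

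The levels of the 10 genes were compared with each other per kb of exonic length, over the 13 libraries of settled region. Sparc, a collagen-binding matricellular protein, was the highest by far, at 1296 ± 658 normalized CPM per kb (SD, n = 13), and stood above Postn in all 13 libraries. Postn, the gene of periostin, which promotes collagen cross-linking, was next at 57.4 ± 18.6, followed by Fbln1 at 48.8 ± 15.7, Fbln2 at 34.1 ± 17.9 and Fn1 at 28.1 ± 13.6. Fbln5, a fibulin required for elastic fibre assembly, was at 17.5 ± 14.1, Eln at 13.2 ± 5.96 and Thbs1 at 7.68 ± 4.45. Tnc, at 3.94 ± 2.32, and Vcan, at 2.04 ± 0.96, were the lowest. Below Sparc, each gene and the next in this order had overlapping ranges of mean ± SD, and the order of neighbours often changed between libraries: Fbln5 was above Eln in 6 of 13 libraries, Fbln2 above Fn1 in 9, Tnc above Vcan in 9 and Postn above Fbln1 in 10. With the length of the longest transcript in place of all exons, Eln and Fbln5 changed places and the other 8 genes kept their rank.

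**Figure D1:**
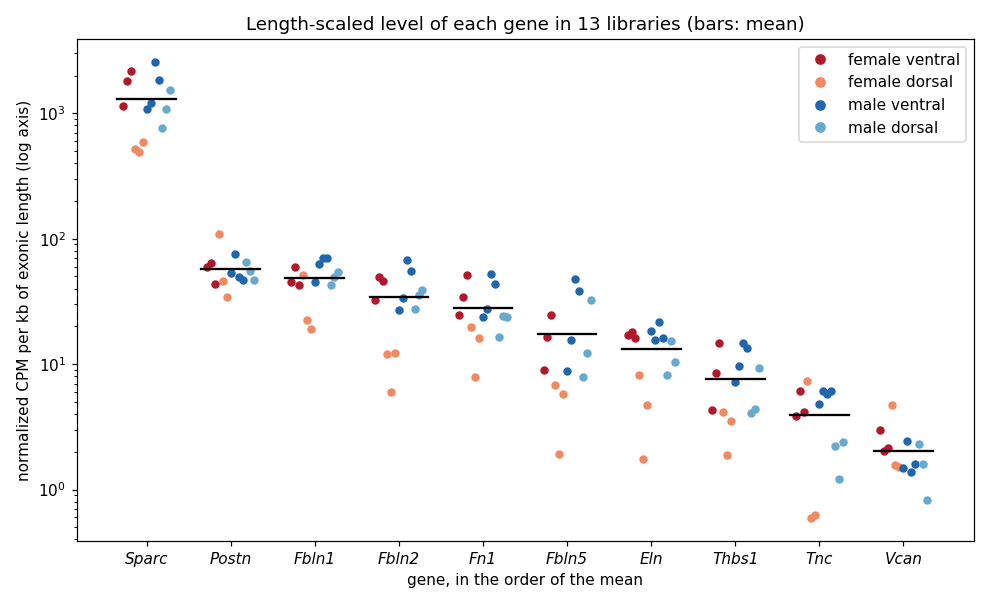
Normalized CPM per kb of exonic length (log axis) of each gene in the 13 libraries of settled region, coloured by group, with the mean as a bar. Sparc lies above every other gene in each library, at a mean of 1296, while the means of the other 9 genes run from 57.4 (Postn) down to 2.04 (Vcan), with overlapping points between neighbours.

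The first comparison asked how the ventral and the dorsal side of female hearts differed. Sparc, Fn1, Fbln2, Fbln5, Eln and Thbs1 were all higher on the ventral side, 2.59-fold to 4.28-fold on the scale of log2(normalized CPM + 1) with 3 libraries a side. By limma no member was called higher on the dorsal side, nor did any have an unadjusted p under 0.05 in that direction, and the edgeR count test called none. The 6 calls stand beside 14.5% of the 14411 genes tested that were called higher ventrally, with limma and a Benjamini-Hochberg adjusted p under 0.05. The median log2 change of the 10 members was 1.48, and that of all genes tested was 0.01. The values of the same 6 members did not overlap between the sides, whereas 23.2% of all genes tested were higher ventrally without overlap.

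**Figure D2:**
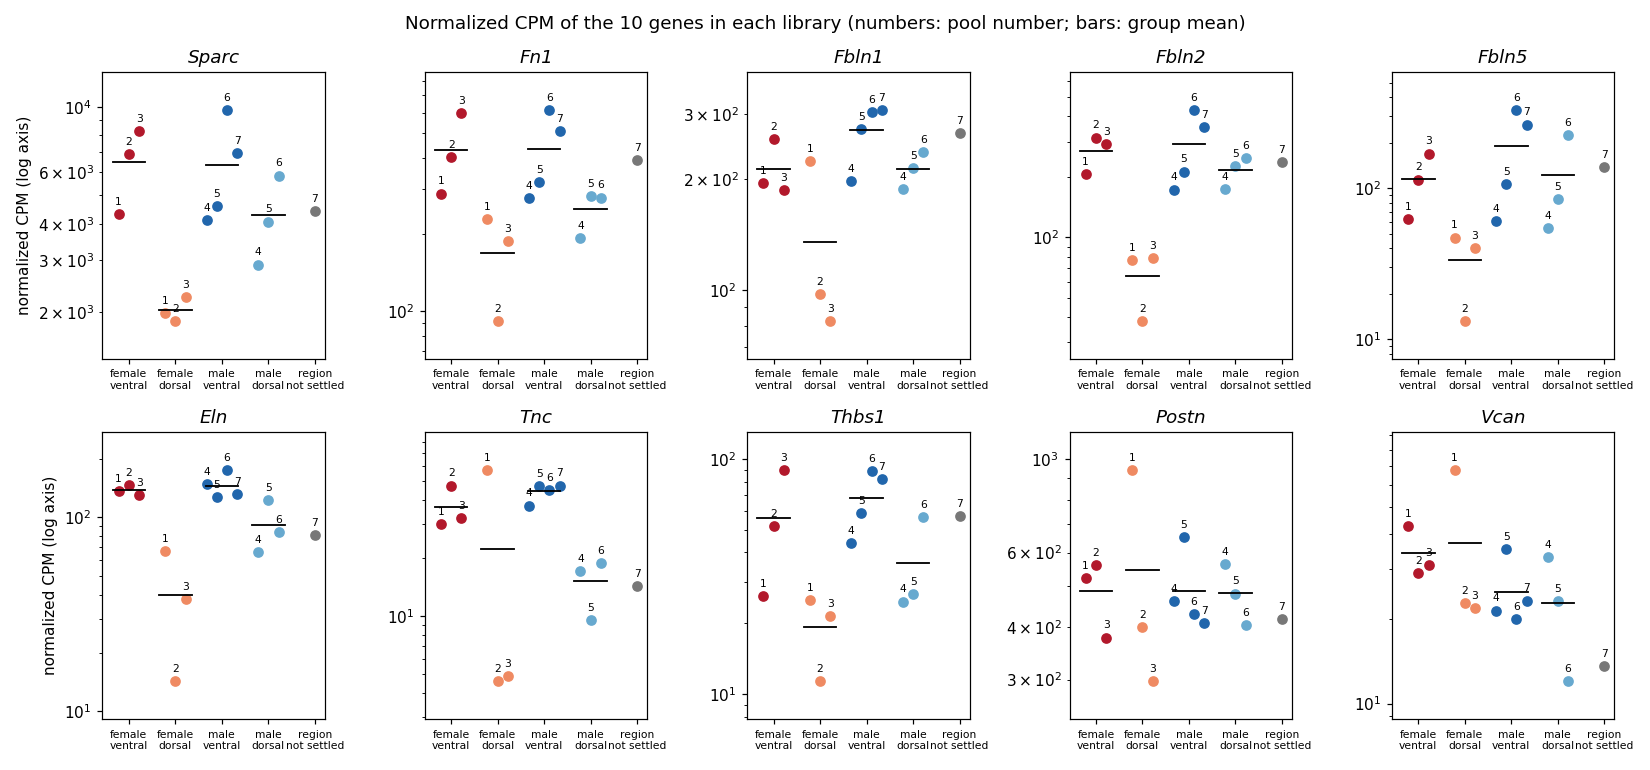
Normalized CPM (log axis) of each gene in each library, with the pool number beside the point and the group mean as a bar; the library with no settled region is in grey. In Sparc, Fn1, Fbln2, Fbln5, Eln and Thbs1 all 3 female ventral points lie above all 3 female dorsal points, and in Tnc, Postn and Vcan the library labelled female dorsal 1 is the highest of all libraries, at 57.1, 941 and 67.7.

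Fn1 (ENSMUSG00000026193, chr1:71585520-71653200 on the minus strand of GRCm38) encodes fibronectin. It was measured at 289, 402 and 596 normalized CPM in female ventral libraries 1 to 3 and at 229, 91.7 and 188 in female dorsal libraries 1 to 3. The lowest ventral library was above the highest dorsal one, although by little. The log2 change was 1.37 (SE 0.34, 2.59-fold, adjusted p = 0.0162). The call was lost without female ventral replicate 2 (adjusted p = 0.0566), without female ventral replicate 3 (0.0592) and when the trend on GC content and length was removed (0.0544), and adjusted p ranged from 0.00446 to 0.0592 over 16 alternatives.

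Among the fibulins, Fbln2 (ENSMUSG00000064080, chr6:91212455-91272540, plus strand), whose product binds fibronectin, tropoelastin and aggregating proteoglycans, had the largest regional change of all 10 members. Its level was 206, 314 and 292 normalized CPM in female ventral and 76.8, 38.4 and 78.5 in female dorsal libraries. The sides were far apart, the lowest ventral value lying well above the highest dorsal one. The log2 change was 2.10 (SE 0.27, 4.28-fold, adjusted p = 9.87e-04), and it was called under all 16 alternatives. Fbln5 (ENSMUSG00000021186, chr12:101746565-101819055, minus strand) was at 62.2, 114 and 170 ventrally and at 47.2, 13.3 and 40.1 dorsally. The ventral library of pool 1 was only slightly above the dorsal one, and those of pools 2 and 3 were far above. Its log2 change was 1.82 (SE 0.46, adjusted p = 0.0175), which was lost without female ventral replicate 2 (adjusted p = 0.0665) or 3 (0.0651; range over 16 alternatives 0.00458 to 0.0665). Fbln1 (ENSMUSG00000006369, chr15:85205949-85286535, plus strand), a fibulin that binds fibronectin and the proteoglycan protease Adamts1, was at 196, 257 and 187 ventrally and at 224, 97.6 and 82.5 dorsally. Here the sides overlapped, because female dorsal 1 was as high as the ventral libraries. The log2 change of 0.79 (SE 0.32) missed the threshold, with an adjusted p of 0.0923. It passed with the pool number as a block (adjusted p = 0.0409) and without female dorsal replicate 1 (log2 change 1.22, adjusted p = 0.0031), and the range over 16 alternatives was 0.0031 to 0.262.

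Because the 3 fibulins changed by different amounts, their proportions differed too. Scaled by length, Fbln1 made up 52.0%, 47.2% and 37.8% of the sum of the 3 fibulins in female ventral libraries 1 to 3 and 73.1%, 73.8% and 51.0% in female dorsal libraries 1 to 3. Fbln2 made up 37.6%, 39.5% and 40.5% ventrally and 17.2%, 19.9% and 33.3% dorsally. Thus the dorsal share of Fbln2 was below every ventral share, while the shares of Fbln1 overlapped by a narrow margin. In male libraries Fbln2 kept a share of 29.9% to 36.5% ventrally and 30.9% to 36.7% dorsally. These shares are ratios of the values above and were not tested.

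Eln (ENSMUSG00000029675, chr5:134702593-134747323, minus strand), the gene of tropoelastin, was the steadiest member on the ventral side, with 137, 147 and 131 normalized CPM in the female libraries, against 66.9, 14.3 and 38.1 dorsally. All ventral values were about alike, and the dorsal values were lower and spread widely. The log2 change was 2.02 (SE 0.42, 4.05-fold, adjusted p = 0.00761), called under all 16 alternatives.

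Among the matricellular genes, Sparc (ENSMUSG00000018593, chr11:55394500-55423183, minus strand) was at 4308, 6881 and 8287 normalized CPM ventrally and at 1983, 1867 and 2251 dorsally. The dorsal libraries lay close together, well below the lowest ventral library. The log2 change was 1.63 (SE 0.29, 3.09-fold, adjusted p = 0.00406), and it was called under all 16 alternatives. Thbs1 (ENSMUSG00000040152, chr2:118111876-118127133, plus strand), which encodes thrombospondin-1, an activator of latent TGF-beta and an inhibitor of angiogenesis, was at 26.2, 51.9 and 89.5 ventrally and at 25.1, 11.4 and 21.4 dorsally. The sides barely separated in pool 1. The log2 change of 1.39 (SE 0.41, adjusted p = 0.0325) was the weakest of the 6 calls: it was lost when female ventral replicate 2 (adjusted p = 0.1) or 3 (0.104) or female dorsal replicate 2 (0.107) was left out and without the trend in eBayes (0.071), in a range of 0.00658 to 0.107.

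Tnc (ENSMUSG00000028364, chr4:63959785-64047015, minus strand), the gene of the anti-adhesive glycoprotein tenascin-C, was at 29.9, 47.5 and 32.2 ventrally and at 57.1, 4.60 and 4.87 dorsally. The dorsal group was thus split, with female dorsal 1 above and the other 2 libraries far below every ventral library. The log2 change of 1.57 (SE 0.74) missed the threshold (adjusted p = 0.143). Without female dorsal replicate 1 it was 2.68 (adjusted p = 0.00126), the only one of 16 alternatives under which Tnc was called, in a range of 0.00126 to 0.596. Without that library 8 of the 10 members were called higher ventrally, Tnc and Fbln1 joining the 6 above, beside 11.8% of 14114 genes tested.

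Postn (ENSMUSG00000027750, chr3:54361109-54391037, plus strand) and Vcan (ENSMUSG00000021614, chr13:89655312-89742509, minus strand), which encodes the large hyaluronan-binding proteoglycan versican, showed no regional change that passed the test. Postn was at 522, 560 and 377 normalized CPM ventrally and at 941, 399 and 298 dorsally. Vcan was at 42.9, 29.2 and 31.2 ventrally and at 67.7, 22.7 and 21.8 dorsally. In both genes the sides overlapped and the library labelled female dorsal 1 was the highest of the 13. The log2 change was -0.01 (SE 0.36, adjusted p = 0.99) for Postn and 0.07 (SE 0.38, adjusted p = 0.914) for Vcan. Without female dorsal replicate 1 they were 0.47 (adjusted p = 0.132) and 0.59 (adjusted p = 0.0881), so neither was called; over 16 alternatives adjusted p ranged from 0.132 to 0.991 for Postn and from 0.0881 to 0.944 for Vcan.

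Some lists of cell type markers moved along with these changes and others did not. In female libraries 9 of 10 epicardial, 6 of 8 fibroblast and 5 of 6 macrophage markers were called higher ventrally. Among all 14411 genes tested, 14.5% were called in this direction and 1918 genes were called lower. No marker was called of 6 for blood endothelium and of 6 for valve and outflow mesenchyme. Of 10 ventricular cardiomyocyte markers 9 had a change below 0 (median log2 change -0.35), none of them called, and 1 was called higher. Of 5 atrial and 3 erythroid markers 1 each was called lower. Of 6 smooth muscle and pericyte markers 3 were called lower and 1 higher ventrally (median log2 change -0.74), and their sum was 729 to 1132 normalized CPM ventrally and 1257 to 1560 dorsally. The summed fibroblast level was 11386 to 22152 normalized CPM ventrally and 2618 to 4407 dorsally, and the macrophage sum was 206 to 416 ventrally and 66.9 to 122 dorsally. The atrial sum of 12463 in female dorsal 1 went with the high Tnc, Postn, Vcan and Fbln1 of that library. The part of these marker levels in the regional changes of the members was not tested.

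**Figure D3:**
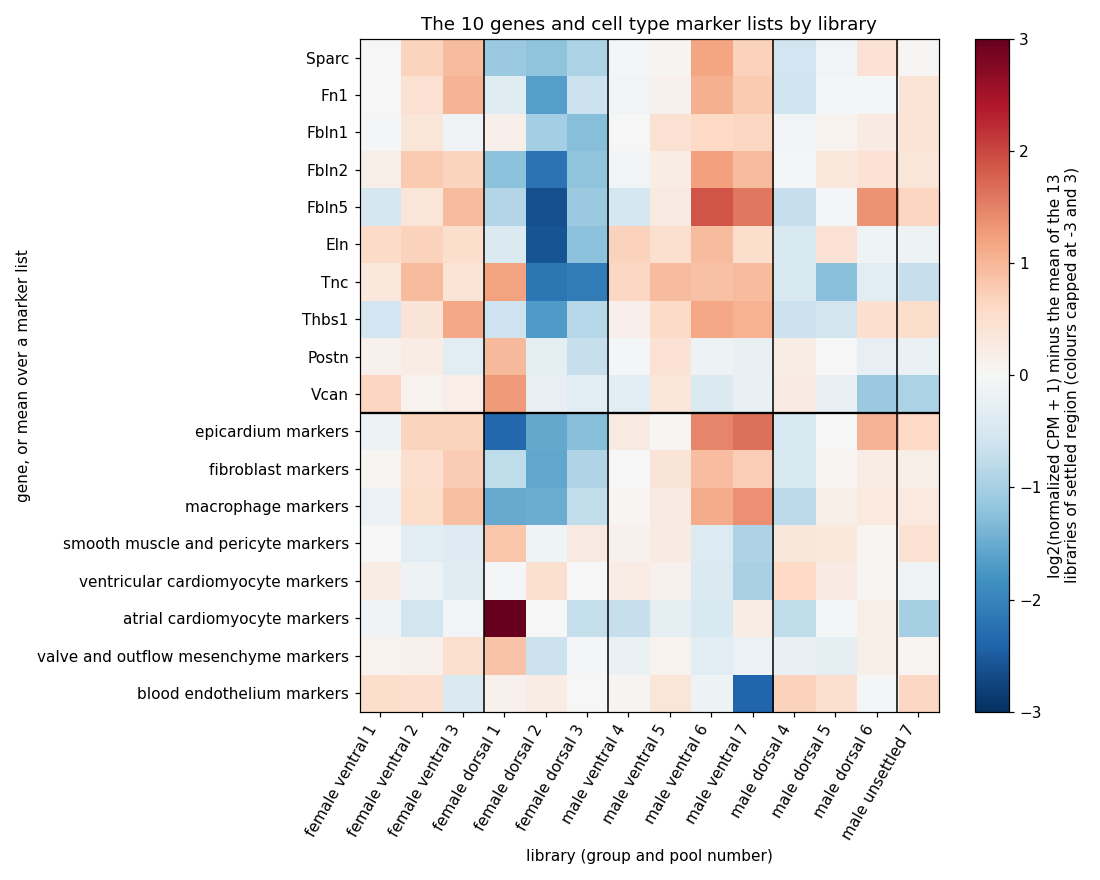
Level of the 10 genes and of 8 marker lists (mean of log2 values) in each library, as the difference from the mean of the 13 libraries of settled region; red is above and blue below that mean. In the female dorsal columns Sparc, Fn1, Fbln2, Fbln5, Eln and Thbs1 are blue together with the epicardial, fibroblast and macrophage lists, and female dorsal 1 is dark red for atrial markers, whose summed level there was 12463 normalized CPM.

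The 250 bases before a RefSeq start (GRCm38.p6, gene strand) are given for 4 members whose female libraries were arranged differently. They are Fbln2 and Sparc, whose female ventral and dorsal libraries did not overlap, and Tnc and Postn, whose highest library was female dorsal 1. For Fbln2 and Sparc 1 start was listed, and for Tnc and Postn 2, of which 1 is shown. Capitals mark matches of the motifs searched on both strands: the TATA box TATAAA, the GC box GGGCGG, the TEAD motif GGAATG and the AP-1 motif, TGANTCA. The windows are chr6:91212514-91212763 (plus strand), chr11:55420081-55420330 (minus strand), chr4:64047016-64047265 (minus strand) and chr3:54360857-54361106 (plus strand). Those of Fbln2 and Sparc lie inside the gene spans given above, so they are not the bases in front of those spans.
Fbln2: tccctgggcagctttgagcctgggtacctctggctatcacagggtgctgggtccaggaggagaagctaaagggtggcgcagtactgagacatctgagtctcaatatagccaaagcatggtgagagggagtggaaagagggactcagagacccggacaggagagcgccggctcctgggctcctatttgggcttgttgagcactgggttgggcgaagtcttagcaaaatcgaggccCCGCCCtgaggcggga
Sparc: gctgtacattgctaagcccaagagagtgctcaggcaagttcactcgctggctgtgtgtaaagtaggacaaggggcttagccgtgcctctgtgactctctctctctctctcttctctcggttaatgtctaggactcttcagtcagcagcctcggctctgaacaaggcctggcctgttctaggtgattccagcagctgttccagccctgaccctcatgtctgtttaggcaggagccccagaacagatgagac
Tnc: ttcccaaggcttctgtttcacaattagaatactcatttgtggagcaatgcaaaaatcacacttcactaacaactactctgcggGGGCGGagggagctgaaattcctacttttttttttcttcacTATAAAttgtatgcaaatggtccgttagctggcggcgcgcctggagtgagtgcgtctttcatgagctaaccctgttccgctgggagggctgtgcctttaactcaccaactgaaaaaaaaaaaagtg
Postn: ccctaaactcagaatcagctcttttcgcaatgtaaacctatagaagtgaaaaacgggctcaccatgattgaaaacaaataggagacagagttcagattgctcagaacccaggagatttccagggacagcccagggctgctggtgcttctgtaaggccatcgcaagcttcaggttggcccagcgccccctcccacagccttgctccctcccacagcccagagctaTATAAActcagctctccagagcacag
Postn held a TATA box from -26 to -21 before its start, Tnc held one from -126 to -121 and a GC box from -167 to -162, and Fbln2 held a GC box from -16 to -11. In Sparc none of the 4 motifs was found in this window. RefSeq promoters were matched for 7 of the 10 members. Fbln5 and Vcan held 2 GC boxes each, and Fbln1 held no match. Of all 32851 promoter windows of this length, 12.4% held a TATA box, 32.7% a GC box, 12.6% a TEAD motif and 6.7% an AP-1 motif. These matches are a description of letters only.

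The same regional comparison in male hearts gave changes in the same direction for 9 of the 10 members, all but Postn, and no call. All 10 log2 changes were above 0, although that of Postn was only 0.002 (SE 0.20). Their median was 0.57, against 0.03 over all genes tested. No member passed the adjusted threshold, beside 0.0% of 14917 genes called by limma (and by the edgeR count test), while 4 members (Tnc, Eln, Thbs1 and Fn1) had an unadjusted p under 0.05, against 6.84% of all genes in this direction. Tnc was at 37.4, 47.2, 44.9 and 47.4 normalized CPM in male ventral libraries 4 to 7 and at 17.2, 9.49 and 18.8 in male dorsal libraries 4 to 6. The ventral values were all more than the highest dorsal value, and the log2 change was 1.53 (SE 0.24, 2.89-fold, adjusted p = 0.195). Eln, the other member without overlap, was at 148, 127, 176 and 132 ventrally and at 66.1, 123 and 83.6 dorsally, with a log2 change of 0.71 (SE 0.21, adjusted p = 0.285). Among all genes tested, 6.18% were higher ventrally without overlap.

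The pool numbers were taken to pair the male libraries, and the number was used as a block over pools 4 to 6, which leaves out male ventral 7. In this limma fit 2 members were called higher ventrally, beside 0.479% of 14600 genes. They were Tnc (log2 change 1.50, adjusted p = 0.00601) and Thbs1 (0.85, adjusted p = 0.0366). Over 19 alternatives adjusted p ranged from 0.00601 to 0.521 for Tnc and from 0.0366 to 0.526 for Thbs1. Thbs1 was at 43.7, 58.8, 88.7 and 81.7 in male ventral and at 24.7, 26.7 and 56.4 in male dorsal libraries, so that each ventral library was above the dorsal one of its pool although the groups overlapped.

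In the remaining members the male sides overlapped and no change passed the adjusted threshold. Sparc was at 4120, 4594, 9765 and 6947 ventrally and at 2901, 4065 and 5834 dorsally (log2 change 0.55, SE 0.37). Fn1 was at 278, 320, 615 and 509 ventrally and at 194, 282 and 279 dorsally (0.72, SE 0.28). Male ventral 6 and 7 were the highest of their group in both genes. Fbln2 was at 173, 213, 431 and 354 ventrally and at 174, 227 and 248 dorsally (0.36, SE 0.30). Fbln5 spread most, at 60.5, 107, 331 and 264 ventrally and at 54.4, 85.3 and 226 dorsally (0.60, SE 0.60). Both sides of Fbln5 thus held low and high libraries, and male dorsal 6 was above male ventral 4 and 5 and below male ventral 6 and 7. Fbln1 ranged from 198 to 308 ventrally and from 188 to 237 dorsally, Postn from 408 to 652 and from 404 to 563, and Vcan reached 35.3 ventrally and 33.2 dorsally. The epicardial sum was likewise highest in male ventral 6 and 7 (5662 and 6081) and in male dorsal 6 (4311), and the fibroblast sum was 25371 and 18183 in the former and 12431 in the latter. Their part in the spread was not tested.

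**Figure D4:**
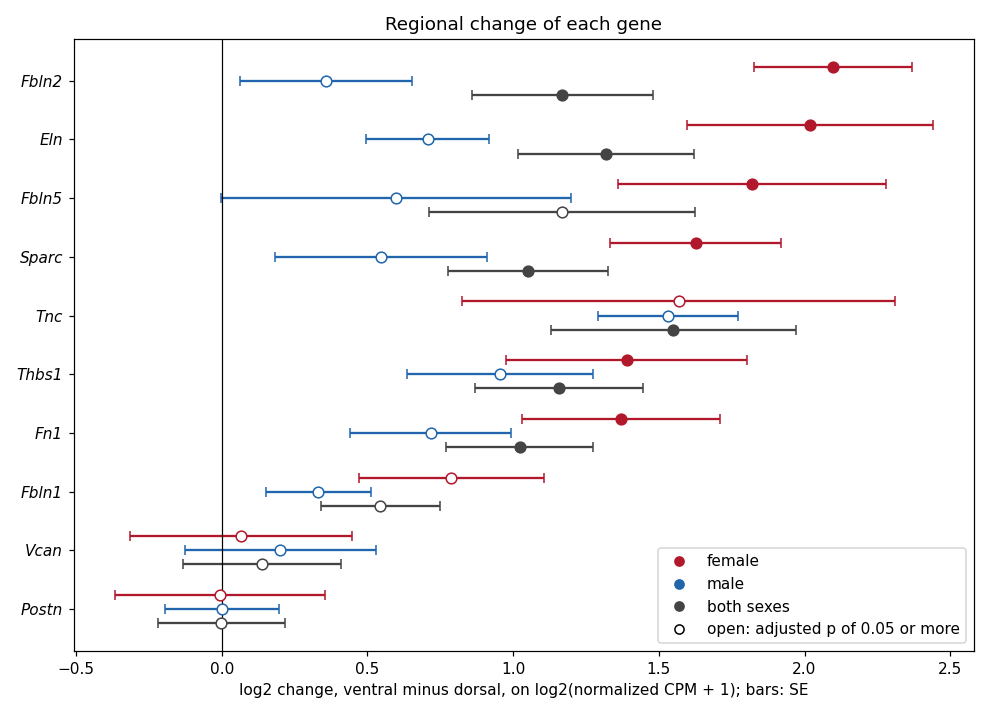
Log2 change (ventral minus dorsal) of each gene in female, male and all libraries, with bars of 1 SE; filled points passed an adjusted p under 0.05. The female points of Fbln2 (2.10) and Eln (2.02) lie farthest to the right, the male points lie between 0.00 and 1.53 and are all open, and Postn and Vcan lie near 0.

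Over both sexes, with sex as a covariate (7 ventral against 6 dorsal libraries), 6 members were called higher ventrally and none dorsally, beside 9.8% of 15772 genes called higher ventrally. Over all genes 1545 were called higher and 1429 lower, and 1045 and 1795 once the trend on GC content and length was removed. They were Tnc (log2 change 1.55, SE 0.42, adjusted p = 0.0217), Eln (1.32, SE 0.30, 0.0124), Fbln2 (1.17, SE 0.31, 0.0204), Thbs1 (1.16, SE 0.29, 0.0159), Sparc (1.05, SE 0.27, 0.0187) and Fn1 (1.02, SE 0.25, 0.0153). The median log2 change of the 10 members was 1.10 and that of all genes was 0.03. Eln alone did not overlap, its lowest ventral library at 127 lying just above its highest dorsal one at 123, as did 1.22% of all genes in this direction. Within the 6 pools with both sides, Fn1, Fbln5, Sparc, Thbs1 and Eln were higher ventrally in 6 of 6, Fbln1 and Tnc in 5, and Fbln2, Postn and Vcan in 4. Fbln5 (1.17, SE 0.46, adjusted p = 0.0832), Fbln1 (0.54, SE 0.20, 0.0715), Vcan (0.14, SE 0.27, 0.752) and Postn (0.00, SE 0.22, 0.995) were not called.

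Some of these calls rested on few libraries. Fbln2 was lost without female ventral replicate 2 (adjusted p = 0.0529) or 3 (0.0511) and with the block together with the removal of the GC and length trend (0.0623), in a range of 0.0104 to 0.0623. Tnc was lost when female ventral replicate 2 (0.0531) or female dorsal replicate 2 (0.0549) was left out and in the edgeR count test (0.123; range 0.00738 to 0.123), and Sparc without female dorsal replicate 2 (0.0506) and under quantile normalization (0.0533; range 0.00953 to 0.0533). Fbln1 was gained without female dorsal replicate 1 (0.0234) or male ventral replicate 4 (0.0382; range 0.0234 to 0.162), and Fbln5 without male dorsal replicate 6 (0.0244) or male ventral replicate 4 (0.0262; range 0.0244 to 0.19). Eln, Fn1 and Thbs1 were called under all 25 alternatives.

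Whether the regional change differed between the sexes was tested directly in a fit of all 4 groups. No member passed, beside 0.615% of 15772 genes with a smaller change in males and 2.73% with a change that differed either way, and 3 members (Fbln2, Eln and Sparc) had an unadjusted p under 0.05, as did 15.4% of all genes; the edgeR count test called none either. The change of Fbln2 was 1.74 lower in males on the log2 scale, a difference of -1.74 (SE 0.45, adjusted p = 0.0551), that of Eln differed by -1.31 (SE 0.52, 0.229) and that of Sparc by -1.08 (SE 0.49, 0.303). Fbln2 was called with the pool number as a block (-1.86, adjusted p = 0.00547, beside 5.22% of 15637 genes either way) and without male ventral replicate 6 (0.0237) or 7 (0.0472), and its range over 25 alternatives was 0.00533 to 0.146. Eln was called without female dorsal replicate 1 (-1.80, adjusted p = 0.0442; range 0.0442 to 0.415). For all other members the difference was between -1.22 and 0.13, with standard errors of 0.40 to 0.88, which does not show that the sexes were alike.

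Levels were also compared between males and females, a contrast that the numbering of the pools shares. The ventral and dorsal library of a pool entered this fit as separate. With the mean of the libraries of each number, 1065 genes were called either way, against 1726 in the main fit. Over both regions no member was called, beside 4.4% of 15772 genes called higher in males, and the edgeR count test called none. Fbln1 (log2 change 0.55, SE 0.20, adjusted p = 0.0948), Fbln2 (0.85, SE 0.31, 0.0933), Fbln5 (1.10, SE 0.46, 0.137) and Eln (0.67, SE 0.30, 0.174) had an unadjusted p under 0.05, all higher in males, as did 12.5% of all genes in this direction. Without male ventral replicate 4 all 3 fibulins were called (adjusted p = 0.0488 for Fbln1, 0.0315 for Fbln2 and 0.0416 for Fbln5), and without female dorsal replicate 1 Fbln1 was (0.0216). Over all genes, 812 of 15597 were called higher in males in the former fit and 544 of 15694 in the latter. Over 23 alternatives adjusted p ranged from 0.0216 to 0.221 for Fbln1, from 0.0315 to 0.178 for Fbln2 and from 0.0416 to 0.32 for Fbln5.

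The difference between the sexes was examined on each side. On the ventral side no member was called, nor had any an unadjusted p under 0.05, beside 3.33% of genes called higher in males and 24.6% with an unadjusted p under 0.05; the edgeR count test called none. On the dorsal side Fbln2 and Eln were called higher in males, beside 2.46% of 15772 genes. Fbln2 was higher in male dorsal (216 ± 38.2 normalized CPM, SD, n = 3) than in female dorsal libraries (64.6 ± 22.7, n = 3). On the scale of log2(normalized CPM + 1) it was 3.44-fold higher, with a log2 change of 1.78 (SE 0.33, adjusted p = 0.00255). It was called under all 21 alternatives. Eln was 2.59-fold higher in male dorsal libraries on the same scale (log2 change 1.37, SE 0.38, adjusted p = 0.0406). Its dorsal groups overlapped, male dorsal 4 at 66.1 lying just below female dorsal 1 at 66.9. The Eln call was lost under 10 of 21 alternatives, among them each of female ventral replicates 1 to 3 left out (adjusted p = 0.0535, 0.0562 and 0.0558), female dorsal replicate 2 (0.121) or 3 (0.0713), male dorsal replicate 5 (0.166) or 6 (0.0914), and the edgeR count test (0.096), in a range of 0.00262 to 0.166. Without female dorsal replicate 1, 4 members were called, Fbln1 (1.23, adjusted p = 0.00206; range 0.00206 to 0.412) and Tnc (adjusted p = 0.00685; range 0.00685 to 0.948) besides these. Over all genes, 232 of 15694 were called higher in male dorsal libraries without that library. In the main grouping Fbln2, Fbln5 and Sparc did not overlap between the dorsal groups, as did 12.6% of all genes in this direction. Markers moved the same way: 5 of 10 epicardial (median log2 change 2.17), 3 of 8 fibroblast (all 8 above 0) and 2 of 6 macrophage markers (1.18) were called higher in male dorsal libraries, and their part was not tested.

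The levels of several members rose and fell together from library to library, which is given as a description over 13 libraries that share their groups, RNA source and scaling. Sparc, Fn1, Fbln2, Fbln5 and Thbs1 were correlated with one another, with Pearson's r from 0.87 to 0.94 on log2 values. Postn stood apart from this group (r = -0.22 with Sparc and -0.04 with Fn1) and followed Vcan (0.76). Fbln1 and Tnc lay between, with r = 0.84 for each other. After removal of the group means r was 0.93 for Fbln2 and Fn1 and 0.93 for Fbln2 and Fbln5. It was 0.85 for Postn and Vcan and 0.88 for Fbln1 and Tnc. It was lower for Sparc and Fn1 (0.79) and for Fbln2 and Thbs1 (0.78). For Sparc and Eln it fell from 0.79 to 0.21. Over the 13 libraries Spearman's rho was 0.65 for Postn and Vcan and 0.73 for Fbln1 and Tnc. In Postn, Vcan, Fbln1 and Tnc the library labelled female dorsal 1 was well above the other female dorsal libraries. Its part in the r values of these genes was not tested.

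The genes most like each member were taken as the 3 with the highest r over the 13 libraries among 9597 genes with a mean of at least 10. For Sparc they were Dcn (0.990), which encodes the small proteoglycan decorin, Aebp1 and Ptprf. For Fn1 they were Fibin (0.976), Col12a1 and Fcrls, for Fbln2 Tmem176b (0.978), Col1a1 and Fxyd6, for Fbln5 Thbs2 (0.980), Bmp4 and Susd2, and for Eln Ltbp4 (0.943), Adgrg6 and Cdon. For Thbs1 they were Serpinf1 (0.963), Bmp4 and Ifi27, and for Fbln1 Fads2 (0.913), Jam3 and Fkbp10. Postn was most like Unc5b (0.909), Lrrc17 and Trim11, and Vcan most like Mthfd2 (0.921), Arl5a and Zeb2. These lists depended on the libraries, since 1 of the 30 genes was among the 3 most alike in the 6 female libraries.

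Other genes of the same matrix systems were read from lists chosen by function, also with earlier results of these data known. Of 16 further elastic fibre and microfibril genes tested in the female libraries, 11 were higher ventrally and 1 lower, with a median log2 change of 1.40. Among all 14411 genes tested, 2089 (14.5%) were called higher ventrally and 1918 lower. The largest changes were those of Ltbp3 (2.07, adjusted p = 7.07e-04), a protein that holds latent TGF-beta in the matrix, Lox (1.83, 0.00346), which cross-links elastin and collagen, Ltbp4 (1.64, 0.00108) and Fbn1 (1.60, 0.00691), the gene of fibrillin-1. Loxl1 (1.55, 8.75e-04) and Loxl2 (1.54, 7.45e-04), further cross-linking enzymes, were next, and Emilin2 was lower (-0.59, 0.0496). The Emilin2 call was lost without female dorsal replicate 1 or 2 or without any 1 of female ventral replicates 1 to 3, with adjusted p of 0.0464 to 0.144 over the 6 libraries left out in turn. Of the fibulin family outside the members, 1 of 4 tested was called, Efemp1, the gene of fibulin-3, at a mean of 168 normalized CPM ventrally and 25.3 dorsally (2.67, adjusted p = 3.34e-04).

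Of 16 other matricellular genes tested, 3 were higher ventrally in females, beside 14.5% of all 14411 genes, and the list had a median of 0.60. The 3 were Tnxb, a tenascin that associates with collagen fibrils (2.64, adjusted p = 2.79e-04), Smoc2, a relative of Sparc (1.87, 0.00187), and Thbs2 (1.13, 0.0302). The Thbs2 call was lost when female ventral replicate 2 or 3 or female dorsal replicate 2 or 3 was left out, with adjusted p of 0.00759 to 0.108. Of the 7 versican and hyaluronan partners tested none was called by limma and none had an unadjusted p under 0.05, with a median of 0.08. Of 13 cell surface receptors of the members, 6 were higher ventrally, among them Stab1, a scavenger receptor of macrophages and endothelium that takes up Sparc (2.67, adjusted p = 0.0019), Sdc4, a syndecan that binds fibronectin (2.31, 8.13e-04), and Lrp1 (1.79, 8.10e-04), while Cd36, a thrombospondin receptor, was lower (-1.19, 0.0102). In male libraries limma called no gene of these 5 lists. Of the 56 genes tested 13 had an unadjusted p under 0.05, beside 2083 of all 14917 genes. The medians were 0.53, 0.51, 0.19, -0.11 and 0.36 for the elastic fibre, fibulin, matricellular, hyaluronan and receptor lists.

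**Figure D5:**
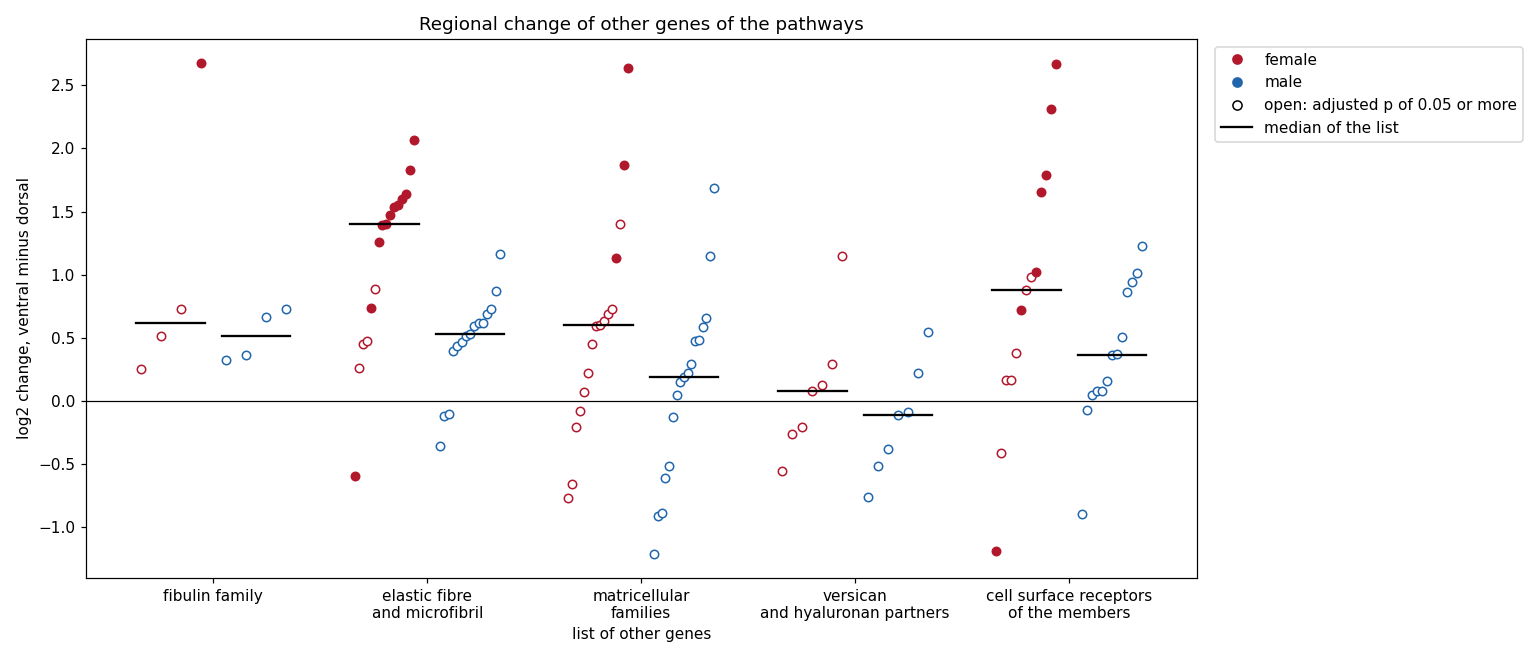
Log2 change (ventral minus dorsal) of each tested gene of 5 lists in female and male libraries, with the median of each list as a bar; filled points passed an adjusted p under 0.05. The elastic fibre list has the highest female median, 1.40, the hyaluronan list lies around 0, and all male points are open.

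Between males and females, 9 of 59 genes of these lists were called over both regions, beside 1726 of all 15772 genes tested. The fit counted the ventral and dorsal library of a pool as separate. Ccn3, a matricellular protein of the CCN family, had the largest change, at a mean of 124 normalized CPM in males and 4.74 in females (log2 change 4.34, adjusted p = 4.30e-05), and Efemp1 (1.78, 0.0183), Efemp2 (0.78, 0.00387), Loxl1 (adjusted p = 0.00125), Fstl3 (0.83, 0.00416), Thbs3 (0.67, 0.0271) and Has1, a hyaluronan synthase (1.87, 0.0141), were also higher in males. Itgb1, the beta chain of the main fibronectin receptor, was lower in males (-0.59, 0.0128), as was Hmmr (-0.63, 0.0234). The Thbs3 call was lost without any 1 of female dorsal replicates 2 and 3, female ventral replicate 3, male dorsal replicate 4 and male ventral replicates 6 and 7 (adjusted p 0.011 to 0.0644), and that of Hmmr without any 1 of the female ventral libraries (0.00866 to 0.0638). In the direct test of the regional change, Emilin1 (-1.08, 0.036), Ltbp4 (-1.21, 0.0204) and Tnxb (-1.50, 0.00788) had a smaller change in males, beside 0.615% of 15772 genes. The Emilin1 call was lost without any 1 of female dorsal replicates 1 and 2, female ventral replicates 2 and 3, male dorsal replicates 4 and 5 and male ventral replicates 5 and 7 (adjusted p 0.0211 to 0.113 over 13 libraries left out in turn). The Ltbp4 call was lost when female ventral replicate 2, female dorsal replicate 2 or male dorsal replicate 5 was left out (0.0132 to 0.0629), and that of Tnxb was kept in each case (0.00592 to 0.0301).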

How the data were processed

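RNA was sequenced from 14 libraries of pooled fetal mouse epicardium and subepicardium as 60-base single reads of poly(A) RNA. The authors trimmed the reads, aligned and counted them with RSEM (version 1.3.1 in the submitters' processing notes) on GRCm38, and normalized them with limma. The deposited values are a per-gene signal, normalized CPM, equal to reads plus 0.5 times a constant of each library; whole reads were recovered for 100.0% of values (within 0.02 of a whole read). Whether strand was used in counting is not given in the sources used here, so Fn1, Tnc, Thbs1, Vcan and Eln, which overlap a gene on the opposite strand, may hold reads of that gene.

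Log2(value + 1) was tested with limma 3.58.1 (R 4.3.3; lmFit and eBayes with trend) over genes at 1 or more in at least 3 libraries of the fit, with Benjamini-Hochberg adjustment over all genes tested and a threshold of 0.05, 2-sided. The ventral and dorsal sides were compared within each sex and over both sexes with sex as a covariate; males and females, and the difference in regional change, were compared in a fit of the 4 groups over 13 libraries. The limma fits were also run on simulated counts, drawn without pool pairing and without an outlying library such as female dorsal 1. That run cannot show how the fits behave with such features. The edgeR 4.0.16 quasi-likelihood test on the recovered reads, other scalings and filters, removal of a GC and length trend (spline of 5 df), a replicate block and each library left out were alternatives. Same-numbered ventral and dorsal libraries of a sex deviated together (r = 0.19, 0.17 and 0.27 in females and 0.43, 0.17 and 0.35 in males, over 15772 genes). Pairs with different numbers had r from -0.37 to 0.09, except male ventral 7 with male dorsal 6 (0.30), which was above several same-numbered pairs. The pool number was taken to pair the libraries. That pools are separate hearts is taken from the methods of the study, since the labels give only a number for each library. The p-values measure the spread between libraries. In all main fits, those of the regions included, the ventral and dorsal library of a pool were counted as separate, although the pool number was taken to pair them. The replicate block and the mean of the libraries of one number were the alternatives that used this number. All 10 genes were named, with the 3 most correlated genes for each (those of Tnc are not reported here) and the called genes of the lists. The members and lists were chosen with earlier results of these data known. The libraries had 13918995 to 25221314 reads, and 3 reads, the floor, correspond to 0.116 to 0.217 normalized CPM.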

Additional observations from a re-analysis of the deposited data

How the results depend on the processing

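The members called higher ventrally in females numbered 6, and 3 to 8 with each library left out in turn (3 without female ventral replicate 2, 8 without female dorsal replicate 1); over both sexes they numbered 6, and 4 to 8. In males no member was called, 2 were called with the replicate block and 1 with the block and removal of the GC and length trend. A smaller regional change in males was called for 0 members and for 1 when the library of unsettled region was taken as dorsal or as ventral, when genes needed a mean of at least 10, and with the block, alone or with the trend removed; leaving out libraries gave 0 to 1. Between males and females leaving out libraries gave 0 to 3 called members over both regions and 1 to 4 dorsally, where removing the trend, eBayes without trend and the edgeR count test each gave 1. Of the genes most like the members, 1 of 30 was also found over the 6 female libraries. The genes called either way among all tested ranged from 2158 (without female ventral replicate 2) to 4265 (replicate block) around 4007 in females, from 0 to 91 (replicate block) around 0 in males, and from 1429 (without female dorsal replicate 2) to 3646 (without male ventral replicate 5) around 2974 over both sexes. For the difference in regional change they ranged from 260 (without female dorsal replicate 2) to 817 (replicate block) around 431. Between males and females they ranged from 1065 (mean of the libraries of one number) to 1859 around 1726 over both regions, from 787 to 1160 around 1129 dorsally and from 508 (without female ventral replicate 3) to 1572 around 1333 ventrally. The block changed no other count of called members by over 1.5 times.

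In the comparisons of ventral with dorsal sides, Postn and Vcan were the members that changed direction, and the cause was not tested. Postn in females had a log2 change of 0.084 under quantile normalization and -0.35 to 0.47 with a library left out. Vcan in females was at -0.18 with the trend removed, with or without the block, at -0.15 by edgeR and at -0.21 to 0.59 with a library left out. In males Postn was at -0.052 with the trend removed, -0.038 with the unsettled library as ventral, -0.0029 under median-of-ratios scaling, -0.0061 with the block and the trend removed and -0.15 to 0.12 with a library left out, where Vcan was at -0.18 to 0.52. Over both sexes Postn was at 0.026 with the unsettled library as dorsal, 0.12 under quantile normalization, 0.036 with the block and -0.14 to 0.20 with a library left out, and Vcan at -0.026 with the trend removed, -0.037 with the block besides and -0.050 to 0.36 with a library left out. In the comparisons between the sexes, single members were tallied where they had an unadjusted p under 0.05, a choice made after the values were seen. Among the values so tallied, regional comparisons included, 794 kept direction and side of the threshold, 28 changed direction, 23 gained and 27 lost the call. Of the members not tallied, Tnc ranged from -0.56 to 1.44 between the sexes dorsally (called without female dorsal replicate 1), from -0.11 to 0.76 over both regions and from -1.15 to 0.83 in the difference of regional change, and Postn also changed sign in each of these and ventrally, as did Vcan in the difference of regional change (-0.39 to 0.45) and Fn1, Fbln2, Sparc, Thbs1 and Eln ventrally. For the called genes of the related lists, 150 values lost the call and 1064 did not, and none changed direction.

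The lowest member value rested on 84 reads, and each group had 3 or 4 pools; their part in which members were called was not tested.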

Other observations

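The male library of unsettled region, numbered 7, belonged to no comparison above. It held 4410 normalized CPM of Sparc, 416 of Postn, 390 of Fn1, 266 of Fbln1, 237 of Fbln2 and 137 of Fbln5. Eln was at 81.2, Thbs1 at 57.0, Tnc at 14.3 and Vcan at 13.6. Tnc and Eln lay within the range of the male dorsal libraries (9.49 to 18.8 and 66.1 to 123) and below that of the male ventral ones (37.4 to 47.4 and 127 to 176), as did Vcan. Fn1, Fbln1 and Thbs1 lay within the ventral range (278 to 615, 198 to 308 and 43.7 to 88.7) and above the dorsal one (194 to 282, 188 to 237 and 24.7 to 56.4). The other members lay within both ranges. Its epicardial markers summed to 2905 and its fibroblast markers to 11532 normalized CPM, both within the ranges of the male libraries. Its region is not settled by these values.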
